A study of Mus musculus with 47 samples.

Results

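Described here are 7 Six-family and Eya-family genes, chosen by symbol from the 38215 genes of the count table and not by their values: Six2, Six4 and Six5, and Eya1, Eya2, Eya3 and Eya4. Earlier results of these data were known when the genes were chosen. All 7 passed the filter on low counts that kept 20560 genes. RNA was sequenced from 47 libraries of mouse cranial neural crest, the migratory embryonic cells that build most of the face and its skeleton, taken by dissection and cell sorting. The libraries form 16 groups of 3, except that the wild-type maxillary group at E10.5 has 2. Wild-type progenitors stand for E8.5. For both E10.5 and E11.5, wild-type cells came from 4 places: FNP (frontonasal process), Mx and Md (maxillary and mandibular processes of the first pharyngeal arch) and PA2 (the second arch). At E10.5 the same places were also taken from embryos labelled Ezh2cKO, a conditional knockout of Ezh2, and Md cells were taken from embryos labelled HoxA2OE, which overexpress Hoxa2. At E11.5, PA2 cells were taken from embryos labelled Hoxa2TempMut, a temporal knockout of Hoxa2, and from a group labelled Control. The Cre line, the transgene, the time of induction, the genotype of Control embryos and the reporter used for sorting were not given in the sources used here. Labels do not say that the replicates came from separate embryos or litters, so each p-value reflects only the spread among these samples, which may be technical.

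Six-family proteins are homeodomain transcription factors, and Eya proteins are their coactivators, which carry a conserved Eya domain with phosphatase activity and do not bind DNA alone. The families act together in the ear, kidney, muscle and sensory placodes and in the neural crest that forms facial bone and cartilage. Six2 is known in the head for its expression in the frontonasal region and the first arch and for its repression by Hoxa2 in the second arch, where Hoxa2 sets second-arch identity. Ezh2 is the histone methyltransferase of the Polycomb repressive complex PRC2, which deposits H3K27me3, a mark of silenced developmental genes.

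Library totals lay between 18.8 and 49.8 M counts (M for 1e6), with a median of 30.6 M. The summed level of 8 crest mesenchyme markers was 1109 to 2892 CPM (counts per M of the TMM-scaled library total) in every library from E10.5 on, and 210 to 283 CPM at E8.5. In E8.5 libraries 8 epithelial and placodal markers summed to 154 to 176 CPM and 4 otic and placodal factors to 81.2 to 93.0 CPM. Ezh2 was at 113 to 157 CPM in the Ezh2cKO libraries and at 350 to 405 CPM in wild-type libraries of that day. Hoxa2 was at 92.8 to 124 CPM in HoxA2OE and at 0.248 to 0.297 CPM in wild-type Md, and at 176 to 195 CPM in Hoxa2TempMut, 268 to 269 CPM in Control and 183 to 199 CPM in wild-type PA2 of that day. The libraries labelled Hoxa2TempMut overlapped wild type in Hoxa2, and Control lay above both. The deleted part of Ezh2 or Hoxa2 is not given, so reads outside it may be among these counts. The 3 HoxA2OE libraries stood apart in their TMM factors, at 0.514 to 0.775 against 0.889 or more in the rest. Mitochondrial genes took 45.9% of counts in HoxA2OE replicate 1, which also had the lowest factor, 28.5% in the other two and at most 33.6% in all other groups.

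On GRCm38, Six2 (ENSMUSG00000024134) spans chr17:85684268-85688274 on the minus strand, Six4 (ENSMUSG00000034460) spans chr12:73099609-73114037 on the minus strand, and Six5 (ENSMUSG00000040841) spans chr7:19094594-19098549 on the plus strand. Eya1 (ENSMUSG00000025932) spans chr1:14168954-14310200 on the minus strand and Eya2 (ENSMUSG00000017897) spans chr2:165595032-165771727 on the plus strand. Eya3 (ENSMUSG00000028886) spans chr4:132638987-132724765 on the plus strand and Eya4 (ENSMUSG00000010461) spans chr10:23104168-23349895 on the minus strand. Eya2 shares its span with the pseudogene Gm11460 on the opposite strand, which held 1919 counts over all libraries beside 13595 for Eya2. The kit did not mark strand, so reads from any bases both share cannot be told apart. A U6 snRNA gene with 687 counts lies within the span of Eya4, which held 80514.

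Promoter sequences show what lies before an annotated start site of the member that differed most between places, Six2, and of Six5, which differed little between places. RefSeq promoters (GRCm38.p6) matched 5 of the 7 members, in 7 windows of 250 bases upstream of a RefSeq start. Windows of Six2, Eya3 and Eya4 reach into the gene spans given above, and those of Six4 lie within its span. The windows of Six4 overlap each other, as do those of Eya4, so the windows are not independent. The windows were searched on both strands for TGACAG, the core bound by Meis factors, which act with Hox proteins, and of the 5 matched members Six2 and Six5 held it. The Six2 window is chr17:85688255-85688504 on the minus strand and the Six5 window is chr7:19094294-19094543 on the plus strand. Both are printed 5′ to 3′ with TGACAG, or its reverse complement CTGTCA, in capitals.
Six2: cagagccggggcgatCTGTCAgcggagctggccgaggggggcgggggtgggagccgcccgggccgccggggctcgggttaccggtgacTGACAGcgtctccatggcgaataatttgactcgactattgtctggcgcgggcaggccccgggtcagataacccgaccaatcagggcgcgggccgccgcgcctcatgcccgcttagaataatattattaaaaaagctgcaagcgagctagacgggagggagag
Six5: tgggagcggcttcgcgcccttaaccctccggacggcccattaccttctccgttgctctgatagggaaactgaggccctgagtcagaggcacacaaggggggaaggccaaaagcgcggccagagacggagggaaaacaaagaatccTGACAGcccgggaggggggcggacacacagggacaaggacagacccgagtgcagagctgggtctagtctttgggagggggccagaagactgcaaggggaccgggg
The Six2 window held the core 2 times and the Six5 window 1 time, and 15.9% of 32851 promoter windows of the same length held it. The Hox and Pbx composite TGATNNAT was in none of the members' 7 windows and in 7.68% of all windows. The homeodomain core TAAT was found 4 times in the Six2 window and in 54.9% of all windows. The Six2 window held 26 CpG dinucleotides, at percentile 90.4 of all windows, where the median was 6, and the Six5 window held 13. The letters CG occurred 13 to 35 times in the 7 windows. A match is a string of letters, and no binding was measured here.

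The range over the groups was wide for 4 of the 7 genes and narrow for the other 3. Over the 16 group means, the highest level of Six2 was 111-fold its lowest, Eya2 24.1-fold, Eya4 20.4-fold and Eya1 7.84-fold. The same ratio was 2.33 for Six5, 1.94 for Six4 and 1.46 for Eya3. Per kilobase of exon in wild-type FNP at E10.5, the levels were 72.9 CPM per kb for Six2, 35.0 for Eya1, 17.3 for Six4, 14.97 for Eya3, 14.04 for Eya4, 9.31 for Six5 and 8.84 for Eya2. The lowest counts behind any value were 14 for Six2, in HoxA2OE replicate 1, and 23 for Eya2.

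**Figure D1:**
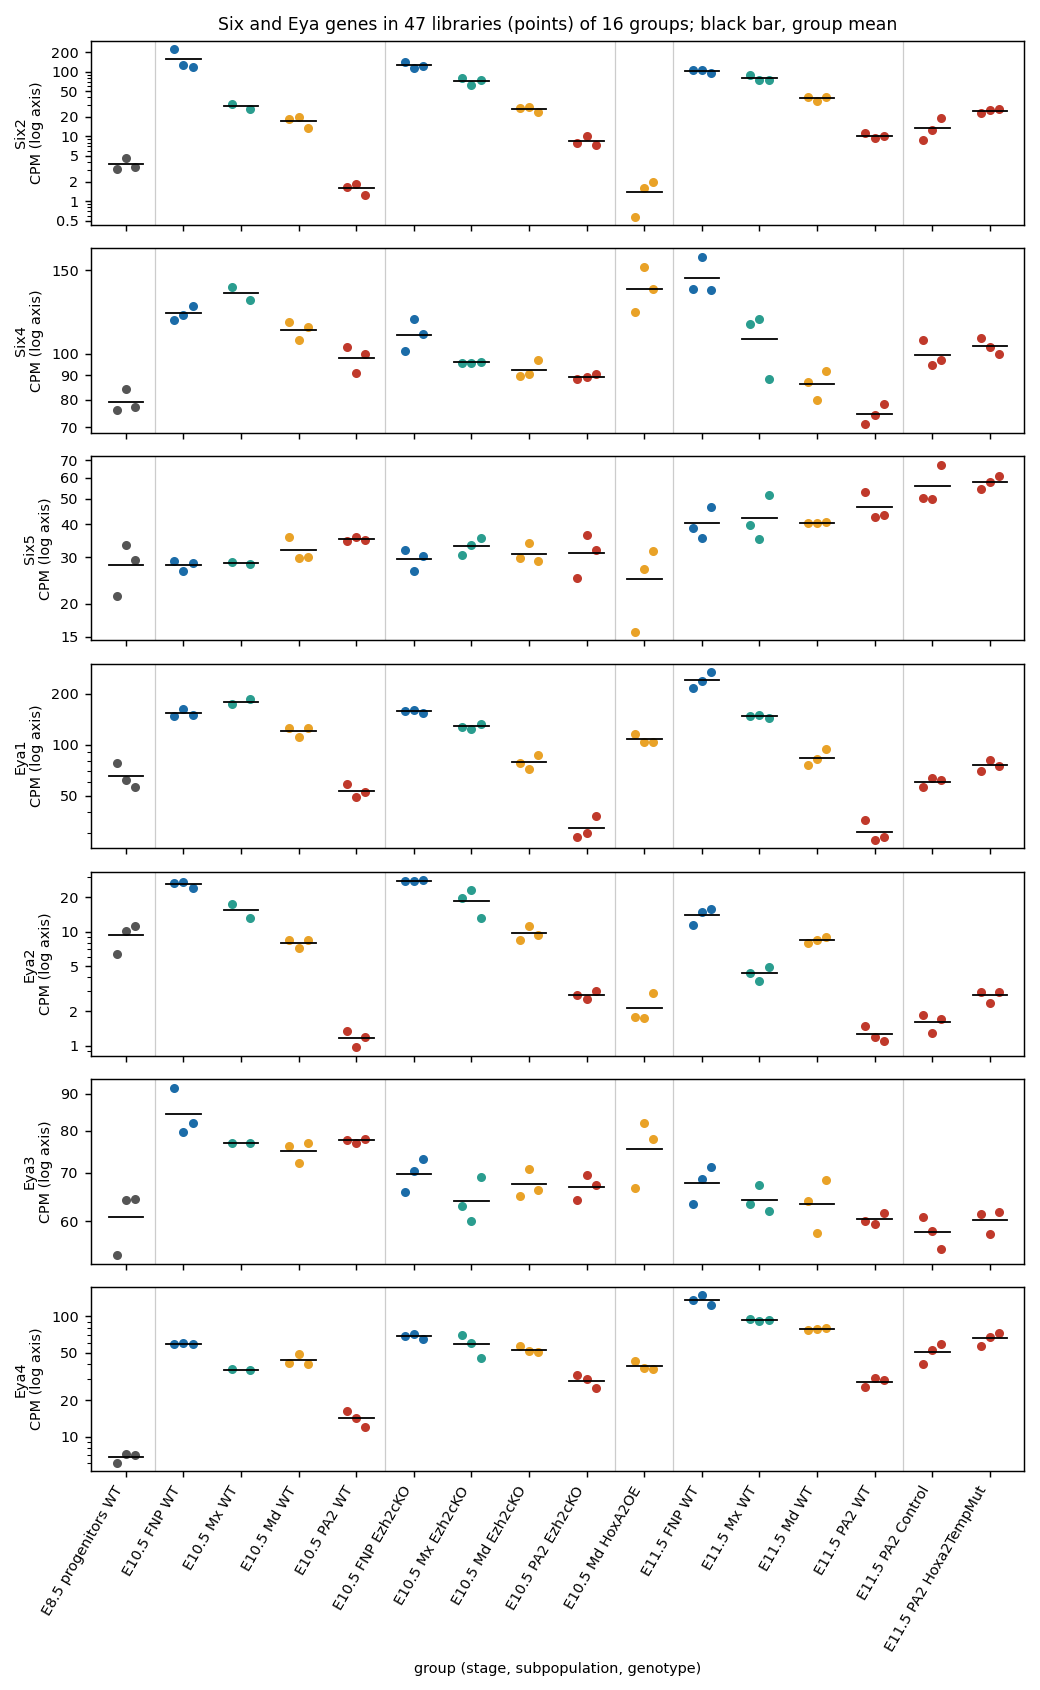
Each point is 1 of 47 libraries, in CPM on a log axis whose range differs between panels. The 16 groups run from left to right by stage and genotype, with a black bar at the group mean and colour for the place. Six2, Eya1, Eya2 and Eya4 were lowest in wild-type PA2 among the 4 places at each stage, while Eya3 stayed between 53.9 and 91.8 CPM in all libraries.

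Within wild-type embryos at E10.5, Six2 was graded from front to back. Six2 was at 222, 128 and 116 CPM in the FNP libraries, at 31.2 and 26.8 in Mx, at 18.6, 20.2 and 13.4 in Md, and at 1.63, 1.85 and 1.23 in PA2. No library of any place overlapped the next, and FNP replicate 1 stood above its group. PA2 was 98.0-fold below FNP (log2 fold change -6.61 ± 0.29 (SE), adjusted p = 5.34e-22) and 11.0-fold below Md (-3.46 ± 0.28, adjusted p = 1.58e-12). The step from Mx to Md was smaller (-0.73 ± 0.23, adjusted p = 0.0499), and its call was lost without any library of Mx or without Md replicate 1 or 3 (adjusted p = 0.0881 to 0.451). In bulk samples, fewer cells that express a gene and less RNA per cell cannot be told apart.

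The coactivator genes Eya2 and Eya4 were also lowest in PA2. Eya2 was at 27.0, 27.4 and 24.2 CPM in FNP, 17.7 and 13.3 in Mx, 8.49, 7.26 and 8.38 in Md, and 1.36, 0.965 and 1.18 in PA2. These values form the same order as Six2, again with no overlap between neighbours. Eya2 in PA2 was 22.4-fold below FNP (-4.49 ± 0.23, adjusted p = 1.84e-19) and 6.89-fold below Md (-2.78 ± 0.24, adjusted p = 5.71e-12). Without Mx replicate 2 the Eya2 difference between Mx and FNP was -0.56 (adjusted p = 0.183), and without Mx replicate 1 that between Md and Mx was -0.71 (adjusted p = 0.102). Eya4 was at 58.5, 59.6 and 58.5 CPM in FNP, 36.6 and 35.6 in Mx, 40.8, 49.1 and 40.0 in Md, and 16.3, 14.2 and 12.04 in PA2. For Eya4 the Md libraries lay above the Mx libraries without passing the test (0.26 ± 0.14, adjusted p = 0.463), and PA2 was 3.05-fold below Md (-1.61 ± 0.13, adjusted p = 2.43e-12).

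Eya1, a partner of Six-family proteins in ear and kidney development, was highest in Mx and lowest in PA2. It was at 148, 163 and 149 CPM in FNP, 174 and 185 in Mx, 126, 111 and 125 in Md, and 58.3, 49.3 and 52.3 in PA2. Mx was highest, yet its difference from FNP did not pass the test (0.23 ± 0.12, adjusted p = 0.199), and PA2 was 2.26-fold below Md (-1.18 ± 0.11, adjusted p = 6.86e-11). Md against FNP (-0.34 ± 0.11, adjusted p = 0.0170) lost its call without FNP replicate 2 (adjusted p = 0.0807) or Md replicate 2 (adjusted p = 0.0994). Six4 passed the test where PA2 was set against FNP (-0.31 ± 0.09, adjusted p = 0.00727, or 0.0604 without PA2 replicate 2) and against Mx (-0.45 ± 0.10, adjusted p = 0.000830), with group means of 98.1 to 134 CPM. Six5, a widely expressed member, and Eya3, a widely expressed coactivator, passed it in none of the 6 pairs, with log2 fold changes of 0.03 to 0.33 and -0.17 to 0.05. Fitted on the compared groups alone, Six5 was called higher in PA2 than in FNP (0.36, adjusted p = 0.0130) and Mx (0.31, adjusted p = 0.0115).

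Of the 42 member and pair combinations at E10.5, 24 were called, each lower in the place further back, where 13.5% of all gene and pair combinations were called either way and 7.38% lower. By pair the members called were 3 for Mx against FNP (16.5% of all genes), 4 for Md against FNP (21.6%), 5 for PA2 against FNP (23.1%), 3 for Md against Mx (6.61%), 5 for PA2 against Mx (8.76%) and 4 for PA2 against Md (4.67%). The pairs share libraries, so these counts are not independent. In the Mx libraries, 10 sensory neuron markers summed to 158 to 185 CPM, beside 10.6 to 14.9 CPM in the other places. None of the 10 was at 0 in Mx. The erythroid sum of 6 markers, 1 of them at 0, was 24.9 to 50.4 CPM in FNP, 336 to 403 in Mx, 219 to 283 in Md and 175 to 423 in PA2. The mitochondrial share was 28.2 to 33.6% in FNP and 19.9 to 24.0% in the other places. The part of these in the differences between places was not tested.

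At E11.5 both Six2 and Eya1 stepped down from FNP through Mx and Md to PA2. Six2 was at 104, 105 and 96.1 CPM in FNP, 88.8, 73.5 and 73.0 in Mx, 41.1, 34.6 and 40.0 in Md, and 11.4, 9.27 and 10.1 in PA2. PA2 was below every other place, at 9.91-fold below FNP (-3.31 ± 0.23, adjusted p = 1.46e-15), while Mx and FNP no longer differed by the test (-0.38 ± 0.20, adjusted p = 0.210, or 0.0366 fitted on the compared groups alone). Eya1 was at 216, 237 and 267 CPM in FNP, 147, 150 and 144 in Mx, 75.8, 82.1 and 93.7 in Md, and 35.9, 27.5 and 28.4 in PA2. All 6 pairs of Eya1 passed the test, up to a 7.84-fold difference between PA2 and FNP (-2.97 ± 0.12, adjusted p = 1.71e-23).

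Eya4 was again lowest in PA2, and Eya2 changed its order. Eya4 was at 138, 149 and 124 CPM in FNP, 95.4, 91.5 and 93.0 in Mx, 77.2, 79.0 and 80.3 in Md, and 26.0, 30.4 and 29.4 in PA2. The Md and Mx libraries of Eya4 were apart without passing the test (-0.24 ± 0.12, adjusted p = 0.286), and the other 5 pairs passed. Eya2 was at 11.53, 14.98 and 15.9 CPM in FNP, 4.38, 3.73 and 4.94 in Mx, 7.98, 8.39 and 8.98 in Md, and 1.49, 1.18 and 1.09 in PA2. Its Mx libraries were now below the Md libraries, and Md was 1.95-fold above Mx (0.96 ± 0.19, adjusted p = 0.000270). The sensory neuron sum was 56.0 to 65.3 CPM in Mx and 55.9 to 70.3 CPM in FNP at E11.5, and 9.83 to 17.8 CPM in Md and PA2, and its part in the change of order was not tested.

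Six4 was called in 5 of its 6 pairs at E11.5, with the widest difference between PA2 and FNP (-0.96 ± 0.09, adjusted p = 1.01e-11) and group means of 74.4 and 145 CPM. Its Md and Mx libraries overlapped, and that call (-0.32 ± 0.09, adjusted p = 0.0132) was lost without Mx replicate 1 or 2 or Md replicate 2 (adjusted p = 0.0979 to 0.138) and on the compared groups alone (adjusted p = 0.136). Six5 and Eya3 were called in none of the pairs. In all, 27 of the 42 combinations were called, 26 lower further back and 1, Eya2 between Mx and Md, higher, beside 15.1% of all gene and pair combinations. By pair the counts were 4 for Mx against FNP (16.7% of all genes), 5 for Md against FNP (15.7%), 5 for PA2 against FNP (27.1%), 4 for Md against Mx (9.18%), 5 for PA2 against Mx (14.3%) and 4 for PA2 against Md (7.87%).

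**Figure D2:**
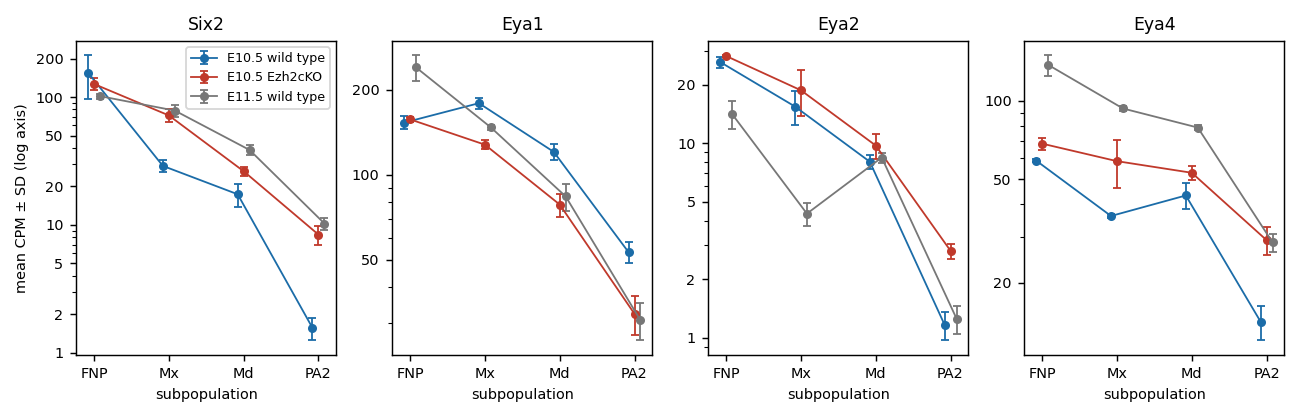
Mean CPM on a log axis with SD over 3 libraries (2 for wild-type Mx at E10.5) for Six2, Eya1, Eya2 and Eya4 along FNP, Mx, Md and PA2, in wild type at E10.5 and E11.5 and in Ezh2cKO at E10.5. The ratio of the FNP mean to the PA2 mean for Six2 was 99.0 in wild type at E10.5, 15.1 in Ezh2cKO and 9.91 at E11.5, while for Eya1 it was 2.87, 4.88 and 7.84.

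Between E10.5 and E11.5 the members moved in different directions. Eya4 rose in all 4 places, by 2.33-fold in FNP (1.22 ± 0.12, adjusted p = 1.86e-10), 2.58-fold in Mx, 1.82-fold in Md and 2.01-fold in PA2. Eya3 fell in all 4, by 0.24 to 0.36 on the log2 scale (adjusted p = 0.000390 to 0.0181). Its call in Md was lost without Md replicate 3 of E10.5 (adjusted p = 0.0512) or Md replicate 2 of E11.5 (adjusted p = 0.109). Without the filter on low counts Eya3 was called in neither Mx (adjusted p = 0.0707) nor Md (adjusted p = 0.0683). Six5 rose by 0.53 ± 0.17 in FNP (adjusted p = 0.0101) and 0.56 ± 0.19 in Mx (adjusted p = 0.0162), and was at 0.35 ± 0.17 in Md (adjusted p = 0.0985) and 0.40 ± 0.17 in PA2 (adjusted p = 0.0525). Fitted on the compared groups alone, both were called (adjusted p = 0.00386 and 0.00269). The Six5 call in FNP was lost without FNP replicate 3 of E11.5 (adjusted p = 0.0926), and that in Mx without either Mx library of E10.5 or without Mx replicate 3 of E11.5 (adjusted p = 0.0880 to 0.134). For these 3 genes the change was not shown to differ between places (F test of 3 contrasts, adjusted p = 0.174 for Eya4, or 0.0410 fitted on the compared groups alone, 0.875 for Eya3 and 0.910 for Six5).

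Six2, Eya1, Eya2 and Six4 changed by amounts that differed between places. Six2 rose 6.49-fold in PA2 (2.70 ± 0.28, adjusted p = 4.23e-10), 2.71-fold in Mx and 2.21-fold in Md, and in FNP it fell (-0.61 ± 0.20, adjusted p = 0.0136). The fall in FNP rested on replicate 1 of E10.5, without which the value was -0.26 (adjusted p = 0.331). Eya1 rose in FNP (0.65 ± 0.11, adjusted p = 4.52e-06) and fell in Md (-0.52 ± 0.11, adjusted p = 0.000135) and PA2 (-0.80 ± 0.11, adjusted p = 1.71e-07). Eya2 fell 3.57-fold in Mx (-1.83 ± 0.20, adjusted p = 1.43e-09) and 1.85-fold in FNP, while its interval in Md was -0.30 to 0.45 and in PA2 -0.44 to 0.66. Six4 fell in Mx, Md and PA2 by 0.32 to 0.40 and rose in FNP by 0.25 ± 0.09 (adjusted p = 0.0201).

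The Six4 call in FNP was lost without FNP replicate 1 or 2 of E10.5 or FNP replicate 2 of E11.5 (adjusted p = 0.0504 to 0.162), and that in Mx without Mx replicate 1 of E10.5 or Mx replicate 3 of E11.5 (adjusted p = 0.0508 to 0.0586). Fitted on the compared groups alone, neither was called (adjusted p = 0.0716 and 0.0640). The F tests of the difference between places gave adjusted p = 5.93e-09 for Six2, 4.67e-09 for Eya1, 2.72e-06 for Eya2 and 0.000168 for Six4, and kept their calls without each library in turn. Of 28 combinations of member and place 23 were called, 11 higher and 12 lower, where 39.6% of all combinations were called. By place these were 7 in FNP (42.6% of all genes), 6 in Mx (38.3%), 5 in Md (38.3%) and 5 in PA2 (39.4%). The difference between places was called for 4 of 7 members and 15.6% of all genes. From E10.5 to E11.5 the mitochondrial share went from 19.9 to 33.6% over the wild-type libraries to 11.7 to 19.5%. The erythroid sum in Mx, Md and PA2 went from 175 to 423 CPM to 27.5 to 78.2 CPM, and the part of both was not tested.

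Against E8.5 progenitors, Eya4 and Six2 showed the largest rise to E10.5. For E10.5 the log2 levels of the 4 places were averaged, so a fold here is not a ratio of mean CPM. Eya4 was at 6.04, 7.12 and 6.98 CPM at E8.5 and at 12.04 CPM or more in every wild-type library of E10.5. By the mean log2 level over the 4 places, Eya4 was 5.03-fold higher at E10.5 (2.33 ± 0.12, adjusted p = 2.44e-20). Six2 was at 3.18, 4.70 and 3.37 CPM at E8.5, which lay above PA2 and below Mx, Md and FNP of E10.5, and the mean over places was 4.99-fold higher (2.32 ± 0.21, adjusted p = 1.07e-12). Eya1 at 77.4, 61.7 and 56.3 CPM (0.82 ± 0.09), Six4 (0.55 ± 0.07) and Eya3 (0.37 ± 0.07) were also called higher at E10.5. Eya2 was at 6.35, 10.2 and 11.3 CPM at E8.5 and was not called (-0.24 ± 0.15, adjusted p = 0.139). Without E8.5 replicate 1, its mean log2 level over the places was lower at E10.5 (-0.45, adjusted p = 0.00868). That direction was not shared by all places. Each wild-type Mx or FNP library of E10.5 held Eya2 at 13.3 CPM or more, above all E8.5 libraries. Md, at 7.26 to 8.49 CPM, lay within the E8.5 range, while PA2, at 0.965 to 1.36 CPM, lay below it. In all, 5 of 7 members were called higher, where 68.4% of all genes were called either way and 32.1% higher. The otic and placodal sum was 81.2 to 93.0 CPM at E8.5 and 0.0315 to 2.18 CPM across wild-type places at E10.5, with none of its 4 markers at 0 at E8.5. At E8.5, 4 neural tube markers summed to 288 to 373 CPM, against 20.6 to 31.5 CPM at E10.5, and 5 endothelial markers to 131 to 144 CPM, against 1.68 to 7.23 CPM. The sum of 6 erythroid markers, 1 of them at 0, was 611 to 984 CPM at E8.5 and 24.9 to 423 CPM at E10.5. The part of these markers in the values was not tested.

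In Ezh2cKO embryos, Six2 was higher in PA2 and Mx, and Eya1 was lower in Mx, Md and PA2. Six2 in PA2 was at 7.81, 10.0 and 7.40 CPM, each above all wild-type PA2 libraries, a 5.31-fold rise (2.41 ± 0.29, adjusted p = 6.40e-08). In Mx it was at 79.2, 62.8 and 73.7 CPM, 2.48-fold above wild type (1.31 ± 0.24, adjusted p = 0.000154). In Md it was at 27.1, 28.0 and 23.9 CPM, above the wild-type libraries without passing the test (0.59 ± 0.22, adjusted p = 0.0822, or 0.00174 fitted on the compared groups alone). In FNP the libraries at 141, 115 and 124 CPM overlapped wild type (-0.29 ± 0.20, adjusted p = 0.492). The change of Six2 differed between places (F test, adjusted p = 7.70e-06).

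The coactivator genes split by direction. Eya1 fell to 127, 124 and 133 CPM in Mx (-0.49 ± 0.12, adjusted p = 0.00439), to 77.5, 71.7 and 86.3 CPM in Md (-0.62 ± 0.11, adjusted p = 6.24e-05) and to 28.6, 30.1 and 37.9 CPM in PA2 (-0.73 ± 0.11, adjusted p = 7.43e-06). No library overlapped wild type in those places, and in FNP the Eya1 libraries overlapped at 157, 161 and 154 CPM (0.04 ± 0.11, adjusted p = 0.911). Eya4 rose to 32.3, 29.9 and 25.4 CPM in PA2 (1.04 ± 0.13, adjusted p = 2.23e-07) and to 69.9, 60.4 and 45.4 CPM in Mx (0.70 ± 0.14, adjusted p = 0.000630), and was at 0.29 ± 0.13 in Md (adjusted p = 0.174, or 0.0224 on the compared groups alone) and 0.22 ± 0.12 in FNP (adjusted p = 0.373). Eya2 rose in PA2, at 2.81, 2.55 and 3.05 CPM against at most 1.36 in wild type (1.27 ± 0.25, adjusted p = 0.000502). Its other values were 0.10 ± 0.17 in FNP, 0.27 ± 0.20 in Mx and 0.28 ± 0.19 in Md.

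A difference between places was called for Eya1 (F test, adjusted p = 0.00618) and Eya4 (adjusted p = 0.0132) and not for Eya2 (adjusted p = 0.159). The call for Eya1 was lost without FNP Ezh2cKO replicate 2 (adjusted p = 0.0524), and that for Eya4 without wild-type PA2 replicate 3 (adjusted p = 0.0706) or Ezh2cKO PA2 replicate 1 (adjusted p = 0.0564). The fall of Eya1 in Mx lost its call without wild-type Mx replicate 2 (adjusted p = 0.121). Six4 fell in Mx (-0.49 ± 0.10, adjusted p = 0.000535) and Md (-0.28 ± 0.09, adjusted p = 0.0339), the latter not called without Md replicate 1 or 3 of wild type or replicate 1 or 2 of Ezh2cKO (adjusted p = 0.109 to 0.136). Eya3 was lower in FNP (-0.28 ± 0.08, adjusted p = 0.0261) and Mx (-0.27 ± 0.09, adjusted p = 0.0488), and leaving out FNP replicate 1 of wild type, FNP replicate 1 or 2 of Ezh2cKO, either wild-type Mx library or Mx replicate 1 or 2 of Ezh2cKO ended the call concerned (adjusted p = 0.0794 to 0.232). On the compared groups alone neither Eya3 call held (adjusted p = 0.140 and 0.0879). Scaled to library totals without mitochondrial genes, Eya3 in FNP (adjusted p = 0.159) and Mx (adjusted p = 0.421) and Six4 in Md (adjusted p = 0.194) were not called. By that scaling Eya4 in Md was called higher (0.37, adjusted p = 0.0498). Without the filter on low counts the same Eya3 and Six4 calls were lost (adjusted p = 0.153 to 0.360). Six5 was called in no place, with 95% intervals within -0.51 and 0.60 on the log2 scale.

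Together 12 of 28 combinations of member and place were called in Ezh2cKO, 5 higher and 7 lower, where 8.78% of all combinations were called. By place these were 1 in FNP (6.80% of all genes), 5 in Mx (10.3%), 2 in Md (8.87%) and 4 in PA2 (9.17%). The difference between places was called for 3 members and 1.63% of all genes. The mitochondrial share moved with the genotype outside FNP, at 24.9 to 28.3% in Ezh2cKO and 21.8 to 22.6% in wild type in Mx, 25.5 to 31.0% and 19.9 to 24.0% in Md, and 26.7 to 29.9% and 22.2 to 23.6% in PA2. In FNP it was 29.3 to 32.4% and 28.2 to 33.6%. Apart from the change of scaling given above, its part was not tested. In the Mx Ezh2cKO libraries the sensory neuron sum was 255, 288 and 105 CPM, and Eya2 was at 19.9, 23.0 and 13.3 CPM and Eya4 at 69.9, 60.4 and 45.4 CPM in the same order. Replicate 3 was lowest in all of these. In none of the other members was replicate 3 lowest, with Six2 at 79.2, 62.8 and 73.7 CPM and Eya1 at 127, 124 and 133 CPM. The part of the neuron markers was not tested. In PA2, where the rises of Six2, Eya2 and Eya4 were called, that sum was 22.0 to 26.1 CPM in Ezh2cKO and 10.6 to 13.4 CPM in wild type, and the otic and placodal sum was 8.04 to 9.13 CPM against 1.67 to 2.18. None of either list was at 0 in Ezh2cKO PA2, and their part was not tested. Hoxa2 itself was at 77.5 to 85.1 CPM in Ezh2cKO PA2, against 124 to 127 CPM in wild-type PA2. In Ezh2cKO FNP it was at 3.07 to 4.06 CPM, against 0 in wild type. In Mx it was at 1.24 to 4.25 CPM against 0 to 0.106, and in Md at 3.59 to 8.21 CPM against 0.248 to 0.297. The part of Hoxa2 in the values of the members was not tested.

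**Figure D3:**
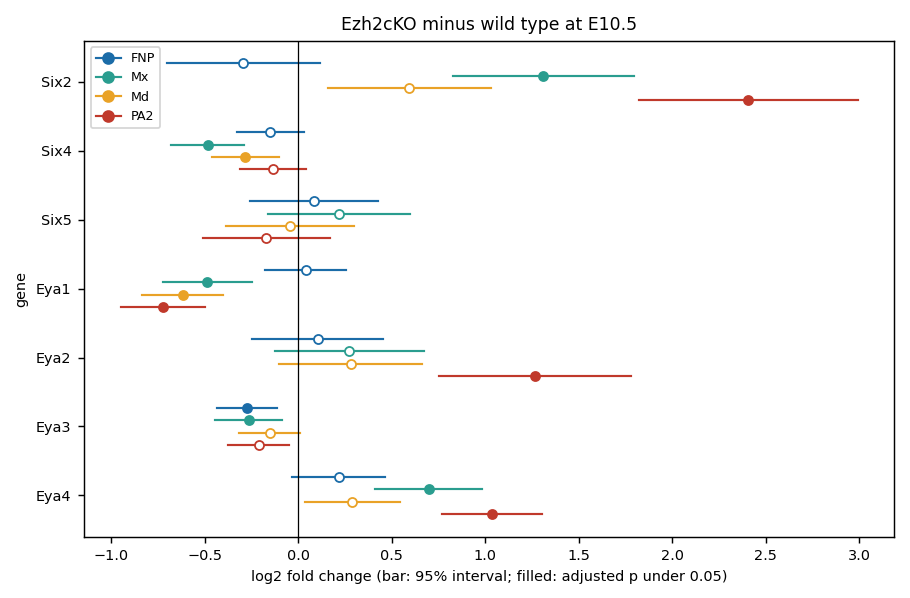
Log2 fold change of Ezh2cKO against wild type at E10.5 for the 7 genes in FNP, Mx, Md and PA2, with the 95% interval as a bar and a filled point where the adjusted p was under 0.05. Six2 runs from -0.29 in FNP to 2.41 in PA2, and Eya1 from 0.04 in FNP to -0.73 in PA2.

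With Hoxa2 overexpressed in Md, Six2 and Eya2 were lower than in wild-type Md, and Eya1 and Eya4 were not called by TMM scaling. Six2 was at 0.578, 1.61 and 1.995 CPM in HoxA2OE, all below wild-type Md, an 11.9-fold fall (-3.57 ± 0.27, adjusted p = 1.79e-13). Eya2 was at 1.78, 1.75 and 2.91 CPM, a 3.69-fold fall (-1.88 ± 0.21, adjusted p = 1.03e-09). Eya1 was at 116, 104 and 104 CPM (-0.16 ± 0.11, adjusted p = 0.215) and Eya4 at 42.2, 37.3 and 36.8 CPM (-0.16 ± 0.13, adjusted p = 0.285), both overlapping wild-type Md. Six4 was higher (0.29 ± 0.09, adjusted p = 0.00506), Eya3 was at 0.01 ± 0.08 and Six5 at -0.36 ± 0.17 (adjusted p = 0.0720, or 0.0172 without HoxA2OE replicate 3). The erythroid sum was 10.4 to 13.3 CPM in HoxA2OE and 219 to 283 CPM in wild-type Md, with 1 of 6 markers at 0 in each. The endothelial sum was 8.80 to 10.3 CPM against 3.31 to 4.21, and the crest mesenchyme sum 2120 to 2869 CPM against 1606 to 1649, with none at 0. Their part in these values was not tested. In this comparison 3 of 7 members were called, 1 higher and 2 lower, where 54.8% of all genes were called.

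The scaling of the HoxA2OE libraries bears on these values. Scaled to the library total without mitochondrial genes, the median of all genes moved by -0.35 on the log2 scale, and the share of called genes that were higher went from 49.4% to 24.5%. Six2 (-3.91, adjusted p = 9.61e-14) and Eya2 (-2.23, adjusted p = 9.94e-11) stayed lower, and Six4 turned to -0.06 (adjusted p = 0.544). On the compared groups alone Six4 was not called either (0.27, adjusted p = 0.0954). Under that scaling Six5 (-0.70), Eya1 (-0.52), Eya4 (-0.53) and Eya3 (-0.34) were called lower. Without HoxA2OE replicate 1, the library with the most mitochondrial counts, Six2 was at -3.29 (adjusted p = 1.78e-12) and Eya2 at -1.80 (adjusted p = 2.72e-08).

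Set against wild-type PA2, the place where Hoxa2 is normally on, HoxA2OE Md overlapped in Six2 and was higher in Eya1, Eya2 and Eya4. Six2 differed by -0.10 ± 0.34, with a 95% interval of -0.80 to 0.59, and the libraries overlapped. Eya4 was 2.73-fold above PA2 (1.45 ± 0.13, adjusted p = 1.36e-11), Eya1 2.03-fold (1.02 ± 0.11, adjusted p = 4.98e-10), Eya2 1.87-fold (0.90 ± 0.26, adjusted p = 0.00292) and Six4 1.40-fold (0.49 ± 0.09, adjusted p = 1.21e-05). Six5 was lower (-0.49 ± 0.17, adjusted p = 0.0124), a call lost without HoxA2OE replicate 1 (-0.28, adjusted p = 0.134). Scaled without mitochondrial genes, Eya2 (0.55, adjusted p = 0.0712) and Six4 (0.13, adjusted p = 0.200) were no longer called and Eya3 was called lower (-0.39). On the compared groups alone Eya2 (adjusted p = 0.0612) and Six5 (adjusted p = 0.105) lost their calls. Called members were 5 of 7, 4 higher and 1 lower, where 56.1% of all genes were called. This comparison shares the HoxA2OE libraries with the one against wild-type Md.

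In PA2 at E11.5, Six2 was the member called between Hoxa2TempMut and Control, where 0.623% of all genes were called either way and 0.258% higher. Six2 was at 22.6, 25.4 and 26.1 CPM in Hoxa2TempMut and at 8.73, 12.7 and 19.1 CPM in Control, with no overlap (1.83-fold, 0.87 ± 0.21, adjusted p = 0.0351). This call rested on few libraries: it was lost without Control replicate 1 (0.64, adjusted p = 0.328), Control replicate 2 (0.83, adjusted p = 0.196) or any Hoxa2TempMut library (adjusted p = 0.0651 to 0.147), and held without Control replicate 3 (1.21, adjusted p = 0.00262). Scaled without mitochondrial genes the adjusted p was 0.0719, and fitted on the compared groups alone it was 0.0501. Eya2 was at 2.96, 2.38 and 2.95 CPM against 1.84, 1.29 and 1.71 in Control, apart but not past the test (0.77 ± 0.22, adjusted p = 0.107). Eya1 was at 70.0, 81.6 and 75.0 CPM, above the 3 Control libraries (0.32 ± 0.11, adjusted p = 0.291). Eya4 was at 0.39 ± 0.12 (adjusted p = 0.198). The other 3 members lay between 0.05 and 0.06 on the log2 scale.

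Control PA2 was not at the wild-type level for every member. Eya1 was at 56.1, 63.4 and 62.1 CPM in Control and at 35.9, 27.5 and 28.4 CPM in wild-type PA2 (1.98-fold, 0.99 ± 0.11, adjusted p = 1.68e-08). Eya4 was at 39.8, 52.0 and 58.6 CPM against 26.0, 30.4 and 29.4 CPM (1.75-fold, 0.81 ± 0.13, adjusted p = 6.01e-06), and Six4 was 1.34-fold higher (0.42 ± 0.09, adjusted p = 0.000457). These 3 of 7 members were called, all higher, where 22.1% of all genes were called either way and 10.1% higher, and Six2 was at 0.40 ± 0.22 (adjusted p = 0.204, or 0.0444 without Control replicate 1). The 9 markers of muscle and branchiomeric mesoderm summed to 29.7, 52.1 and 50.1 CPM in Control, 25.9, 26.4 and 21.6 CPM in Hoxa2TempMut and 6.42 to 14.1 CPM in wild type, with none at 0 in any of the 3 groups. Eya1, Eya4 and Six4 are known in embryonic muscle too, and the part of these markers was not tested. Both comparisons with Control share its libraries.

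**Figure D4:**
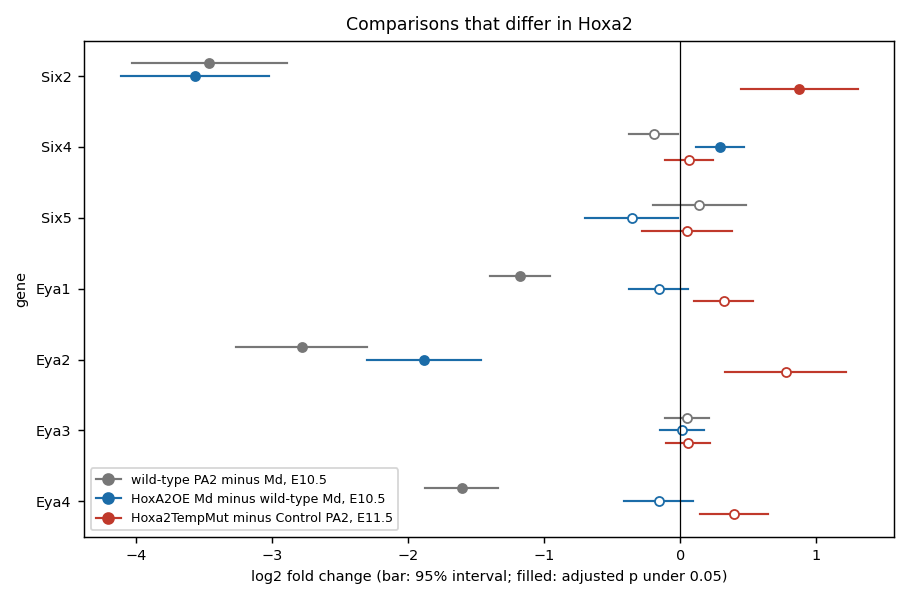
Log2 fold change with its 95% interval for the 7 genes in wild-type PA2 against Md at E10.5, HoxA2OE against wild-type Md at E10.5 and Hoxa2TempMut against Control PA2 at E11.5; points are filled where the adjusted p was under 0.05. Six2 was at -3.46, -3.57 and 0.87 in the 3 comparisons, and Eya1 at -1.18, -0.16 and 0.32. The first 2 comparisons share the wild-type Md libraries, and by scaling without mitochondrial genes Six4 in HoxA2OE turns to -0.06 and Eya1 is called lower at -0.52.

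Genes around the family were counted from 3 lists: 12 partners and cofactors, 16 genes known as targets in other tissues, and 14 genes known upstream of or beside the family. In wild-type PA2 against Md at E10.5, where 4.67% of all genes were called, 1 partner was higher and 3 lower (median -0.10, against 0.00 over all genes). Tle2 (-0.93 ± 0.19) and Tle4 (-0.89 ± 0.09), Groucho-type corepressors that can bind Six-family proteins, were lower in PA2. Among targets 1 was higher and 4 lower (median -0.04), with Igfbp5, a modulator of insulin-like growth factors, higher in PA2 (2.14 ± 0.19) and Gata3 lower (-2.56 ± 0.25). Of the upstream list 6 were higher and 0 lower (median 0.80), among them Meis1 (2.25 ± 0.13) and Meis2 (1.21 ± 0.10), homeodomain cofactors of Hox proteins.

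In HoxA2OE against wild-type Md, where 54.8% of all genes were called, 1 partner was higher and 8 were lower (median -0.42, against -0.07 over all genes). Tle2 was at -1.89 ± 0.20 and Tle3 at -0.65 ± 0.15. These counts are by TMM scaling, beside the shift of -0.35 given above. Of the targets 5 were higher and 2 lower (median 0.25), and Igfbp5 was at 164 CPM against 38.4 CPM in wild-type Md and 170 CPM in wild-type PA2. Osr1, a zinc-finger factor, was lower (-1.55 ± 0.21), as it was in PA2 against Md (-1.40 ± 0.22). The upstream list had 9 higher and 1 lower (median 0.93), with Hoxa2 itself among those higher.

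In Ezh2cKO PA2, where 9.17% of all genes were called, 3 partners were higher and 1 lower (median 0.16, against 0.00 over all genes), with Tle2 at 1.57 ± 0.19 and Tle4 at 0.57 ± 0.09. Of the targets 8 were higher and 0 lower (median 0.84), with Sall1, a kidney and limb regulator, at 2.13 ± 0.17. The upstream list had 3 higher and 3 lower (median -0.04), with Pax2 higher (2.14 ± 0.29) and Meis2 lower (-0.44 ± 0.10). In Hoxa2TempMut against Control, where 0.623% of all genes were called, no partner was called, 2 targets were lower (Nefl and Sall1) and 3 upstream genes were lower, with Pax2 at -2.36 ± 0.35, Pax9 at -0.62 ± 0.11 and Meis2 at -0.60 ± 0.10. Hoxa2, also on the upstream list, was not called. The level of Pax2 was low. The sum of 4 otic and placodal factors, Pax2 among them, was 1.00 to 1.99 CPM in Hoxa2TempMut and 2.12 to 3.12 CPM in Control. The partner, target and upstream lists overlap with the marker lists in Pax2, Pax8, Sox2, Myod1 and Myog.

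Over the 16 group means of log2 CPM, which share libraries, depth and scaling, the members closest to each other were Six4 and Eya1 (Pearson r = 0.79), then Six2 and Eya4 (0.75), Six2 and Eya2 (0.73) and Eya1 and Eya2 (0.73). Six5 and Eya3 ran opposite to each other (-0.67). Among 11275 genes of at least 5 CPM, the genes most like Six2 were Tenc1 (0.94), Abtb2 (0.93) and Cxcr7 (0.92), and those most like Eya2 were Pax3 (0.87), Etv5 (0.87) and L1cam (0.87). Eya1 was closest to Fam107b (0.90), Dusp6 (0.88) and Cerkl (0.87), and Six4 to Dusp6 (0.85), Elovl6 (0.85) and Fam107b (0.84). Fam107b and Dusp6 stood in both lists. Eya4 was closest to Mme (0.94), Palm2 (0.93) and Dlg2 (0.92), Six5 to Fam120b (0.96), Lrrc14b (0.96) and Dedd (0.95), and Eya3 to Gm6104 (0.95), Hmgb3 (0.91) and Ptcd1 (0.89).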

How the data were processed

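Cells were dissected, sorted and read as single ends of 50 bases from unstranded libraries, per the labels' protocols. The authors deposited raw read counts per gene on GRCm38, demultiplexed with bcl2fastq 2.17 per the submitters' processing notes, and the deposited table also gives the exonic bases of each gene. The aligner, counter and annotation were not given in the sources used here. Of the columns, 22 appear again with identical values and were used once. The model was edgeR 4.0.16 (R 4.3.3): filterByExpr by group (minimum count 10, minimum total 15), TMM, 1 mean per group over all 47 libraries with 31 residual degrees of freedom, the quasi-likelihood test, and Benjamini-Hochberg adjustment over all genes tested within a comparison. A gene was called at an adjusted p under 0.05. A value after ± is an SE for a log2 fold change. Total, mitochondrial share and replicate agreement were checked, and no library pair of a group differed by as little as counting noise (chi-square per degree of freedom at least 3.53). It was 316 and 331 in pairs with HoxA2OE replicate 1, and 118 and 128 with E8.5 replicate 1. It was 65.3 and 71.3 with FNP replicate 3 of E11.5, and 42.3 and 44.4 with wild-type FNP replicate 1 of E10.5. The remaining pair of these groups was at 12.2, 6.67, 12.1 and 6.19, in that order. The fit was tested on simulated data. The genes named are the 7 members in every comparison, Ezh2 and Hoxa2, the 3 genes most correlated with each member, and up to 4 called genes of largest change per list, of which the text gives some. The members and lists were chosen with earlier results of these data known. Same-numbered replicates deviated together (at least 3 pairs, every correlation over 0.1) in 3 of 24 comparisons, and the labels give no shared litter or day. These were PA2 against Md at E10.5, PA2 against Mx at E11.5 and FNP between the days. Comparisons with wild-type Mx of E10.5 had 2 pairs and could not meet this rule. Of those, PA2 against Mx at E10.5 had correlations of 0.187 and 0.194. Alternatives were DESeq2 1.42.0, its size factors, library totals without mitochondrial genes, no filter, a replicate block, the compared groups alone, and each library left out. For the fits with a library left out, the trend of the dispersion was carried over from all 47 libraries and not estimated again. Eya1 and Eya2 promoters were not analysed here.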

Additional observations from a re-analysis of the deposited data

Results flagged for a closer look

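Change with the stage differed between places for 4 genes by an F test of 3 contrasts in edgeR, the test of the difference itself: Six2 (adjusted p = 5.93e-09), Eya1 (adjusted p = 4.67e-09), Eya2 (adjusted p = 2.72e-06) and Six4 (adjusted p = 0.000168). From E10.5 to E11.5, Six2 was at 2.70 in PA2 and -0.61 in FNP on the log2 scale, and Eya1 at -0.80 in PA2 and 0.65 in FNP. Eya2 was at -1.83 in Mx and 0.07 in Md, and Six4 at 0.25 in FNP and -0.40 in PA2.

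The change in Ezh2cKO differed between places for 3 genes by the same kind of test: Six2 (adjusted p = 7.70e-06), Eya1 (adjusted p = 0.00618) and Eya4 (adjusted p = 0.0132). Six2 was at 2.41 in PA2 and -0.29 in FNP, Eya1 at -0.73 in PA2 and 0.04 in FNP, and Eya4 at 1.04 in PA2 and 0.22 in FNP. No group here had 4 or more libraries, so single libraries were not tested for standing apart.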

How the results depend on the processing

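Pooled over the places or pairs of a comparison, the counts of called members kept within 1.5 times their value except in HoxA2OE and Hoxa2TempMut. By place, the Ezh2cKO count in FNP went from 1 to 0 without mitochondrial genes, without the filter and on the compared groups alone, and in Md from 2 to 4 on the compared groups alone. With library totals that leave out mitochondrial genes, 6 members in place of 3 were called in HoxA2OE against wild-type Md and 0 in place of 1 in Hoxa2TempMut against Control, and Six4 in HoxA2OE against wild-type Md reversed to -0.0646. That scaling moved the share of called genes that were higher from 66.7 to 75.4% over the 4 places to 84.0 to 89.7% in Ezh2cKO, and shifted the median of all genes by 0.13 for E10.5 against E8.5 and 0.10 for Ezh2cKO in Mx. Fitted on the compared groups alone, 3 in place of 5 were called in HoxA2OE against PA2 and 0 in place of 1 in Hoxa2TempMut. That fit called 6400 in place of 11277 genes in HoxA2OE against Md, 6550 in place of 11529 against PA2, 3026 in place of 1885 in Ezh2cKO PA2, 1746 in place of 960 in PA2 against Md and 2883 in place of 1802 in PA2 against Mx at E10.5, 247 in place of 128 in Hoxa2TempMut, and 546 in place of 335 for the Ezh2cKO difference between places, which DESeq2 called for 522. The cause was not tested.

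Leaving out 1 library took single counts to 0 in FNP, 1 in Md and 3 in Mx for Ezh2cKO, and to 1 for Md against Mx at E10.5. Leaving out each library in turn gave 22 to 24 called combinations for the E10.5 pairs, 26 to 27 for the E11.5 pairs, 5 to 6 for E10.5 against E8.5, 21 to 23 for the stages by place, 10 to 12 for Ezh2cKO, 3 to 4 for HoxA2OE against Md, 4 to 5 against PA2, 0 to 1 for Hoxa2TempMut and 3 to 4 for Control. The tests of a difference between places gave 4 to 4 for the stage and 2 to 3 for Ezh2cKO. With 1 of the 2 Mx libraries left out, the lone library is assumed to vary like the other groups. With a replicate block, 185 of 189 results for single members kept their call, and none changed in the 3 comparisons whose numbers deviated together. Six2 between Md and Mx at E10.5 lost its call (adjusted p = 0.0656), and Eya1 in Mx (adjusted p = 0.0460) and Six5 in PA2 (adjusted p = 0.0398) between the stages and Six5 in HoxA2OE against Md (adjusted p = 0.0470) gained one. DESeq2 kept 187 of 189, and the fit on the compared groups alone 169. Low counts limit Six2 and Eya2 in PA2 and HoxA2OE, although the HoxA2OE libraries had the largest totals of the series, at 45.6 to 49.8 M counts.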
